A study of Mus musculus with 6 samples.

Results

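The genes described here belong to DNA replication and to its control by E2F transcription factors. Mcm3, Mcm4, Pola1, Dnmt1, E2f1 and Tfdp2 were selected on their measured difference between knockout and wild-type ventricles, so that difference is given as a description and without a test. These 6 genes, of 215 named in the table, were represented by 8 of its 271 probe sets (a probe set is a group of short probes for 1 transcript), and every probe set of a gene was kept. RNA came from ventricles at postnatal day 1, with 3 arrays per genotype. Both groups carried aMHC-Cre, a Cre recombinase driven by the cardiomyocyte promoter of Myh6. The wild-type mice had the genotype aMHC-Cre; 125b1+/+ and the knockout mice aMHC-Cre; 125b1f/f, in which loxP sites flank miR-125b-1. The deletion was thus directed at cardiomyocytes, whereas other cells of the ventricle kept the locus and all cells kept miR-125b-2. No probe set of the deleted locus was analysed here, and the genotypes rest on the labels.

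Before a cell copies its genome, ring-shaped MCM helicases are loaded on the origins of replication, and DNA polymerase alpha with its primase then starts each new strand. DNMT1 follows the fork and copies the methylation of the old strand to the new one. Many genes of this machinery are switched on by E2F factors, which bind DNA as heterodimers with a DP protein and are held back by the retinoblastoma family. Cardiomyocytes of the mouse divide before birth and leave the cell cycle soon after it. In GRCm38.p6 the genes lie at chr1:20802966-20820312 (Mcm3), chr16:15623897-15637400 (Mcm4), chrX:93304766-93632387 (Pola1), chr9:20907206-20959888 (Dnmt1), chr2:154559400-154569892 (E2f1) and chr9:96196246-96323646 (Tfdp2).

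Both copies of the miR-125b gene give rise to the same mature 5p strand, which is shown because only its copy on chromosome 9 was deleted. In RefSeq (GRCm38.p6) the strand lies at chr9:41581940-41581961 (+) in miR-125b-1 and at chr16:77646279-77646300 (+) in miR-125b-2. The capitals mark the seed, bases 2 to 8.
mmu-miR-125b-5p: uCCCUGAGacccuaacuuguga

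The promoters were compared because 5 of the genes were lower together in the knockout. RefSeq promoter windows of GRCm38.p6, which run from 250 bases before to 50 bases after an annotated start, were found for 5 of the 6 genes (Mcm3, Pola1, Dnmt1, E2f1 and Tfdp2). Each was searched on both strands for the 4 words of 8 bases TTTCCCGC, TTTCGCGC, TTTGCCGC and TTTGGCGC, which together make up a consensus of E2F binding. The windows of Mcm3, Pola1 and Dnmt1 that hold such a word are printed on the strand of the gene, with the E2F words in capitals. They lie at chr1:20820263-20820562 (-), chrX:93632106-93632405 (-) and chr9:20952574-20952873 (-).
Mcm3: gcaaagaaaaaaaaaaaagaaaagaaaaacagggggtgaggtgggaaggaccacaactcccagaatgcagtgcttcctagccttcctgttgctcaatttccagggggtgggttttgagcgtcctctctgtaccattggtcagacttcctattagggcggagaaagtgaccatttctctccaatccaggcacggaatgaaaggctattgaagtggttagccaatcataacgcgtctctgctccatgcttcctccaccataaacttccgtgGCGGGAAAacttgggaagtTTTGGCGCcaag
Pola1: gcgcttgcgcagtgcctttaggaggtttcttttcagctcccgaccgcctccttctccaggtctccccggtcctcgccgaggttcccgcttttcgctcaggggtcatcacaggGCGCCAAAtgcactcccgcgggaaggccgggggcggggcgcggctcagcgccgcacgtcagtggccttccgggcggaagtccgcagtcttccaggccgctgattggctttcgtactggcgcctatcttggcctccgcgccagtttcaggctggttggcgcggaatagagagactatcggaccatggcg
Dnmt1: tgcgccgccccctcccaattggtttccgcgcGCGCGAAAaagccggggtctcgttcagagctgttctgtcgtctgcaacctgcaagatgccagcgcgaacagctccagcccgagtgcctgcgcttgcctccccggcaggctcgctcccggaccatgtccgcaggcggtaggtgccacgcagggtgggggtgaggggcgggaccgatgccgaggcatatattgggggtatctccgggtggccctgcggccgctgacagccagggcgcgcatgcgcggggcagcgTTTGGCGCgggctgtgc

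An E2F word was found in 3 of the 4 lower genes that have a window, and in 2.6% of all 27025 genes with a window. Mcm3 held GCGGGAAA, the reverse complement of TTTCCCGC, beginning at base 20 (the start site being base 1), and TTTGGCGC at base 39. Pola1 held GCGCCAAA, the reverse complement of TTTGGCGC, at base -138. The start site of its window lies 232 bases inside the outermost annotated start of the gene. Dnmt1 has 3 windows, and its 2 words stood in the innermost of them, as GCGCGAAA at base -219 and TTTGGCGC at base 34. The start site of this window, from which these bases are counted, lies 7265 bases inside the outermost start. All of this window lies downstream of the start site of the middle one, which is 6909 bases inside the outermost start. The window of E2f1, with its start site 466 bases inside the gene, had none of the 4 words. The 2 windows of Tfdp2, with start sites 62459 and 63002 bases inside that gene, had none either. These windows lie wholly inside the genes, so the bases before the outermost starts of E2f1 and Tfdp2 were not searched. An E2F word was held by 2 of 54 other lower genes of the table (3.7%) and by 3 of 119 other higher genes (2.52%). The members were grouped as replication and E2F genes, many of which E2F factors switch on. Their share of E2F words can thus follow from the choice of genes, and it was not tested. A match describes letters in a window and not a bound site, and a gene with several windows has more chances of a match.

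**Figure D1:**
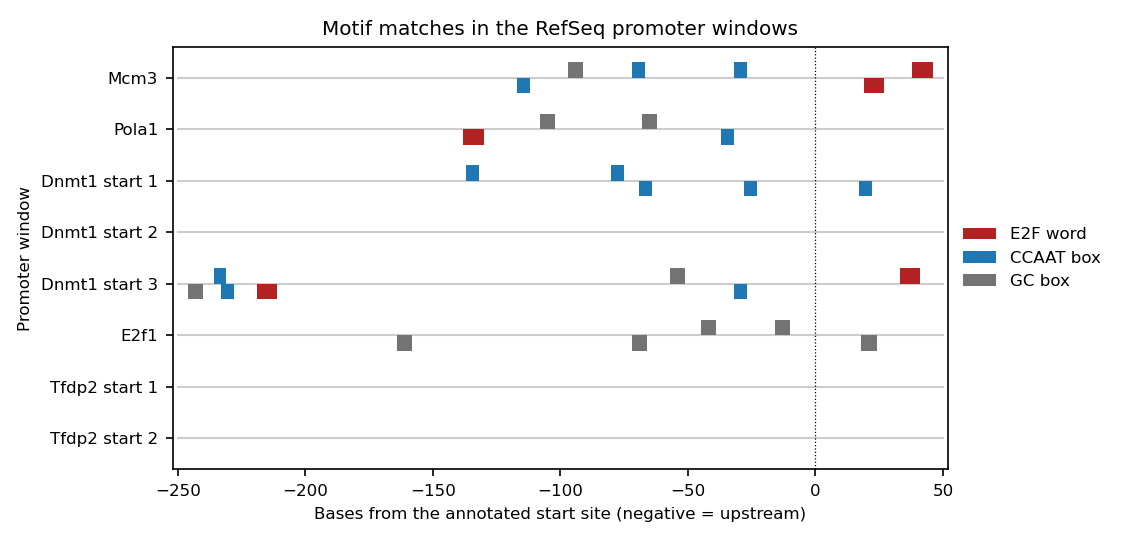
Matches of the E2F words (red), of the CCAAT box (blue) and the GC box (grey) in the 8 promoter windows of the members (one row each, outermost start first), against the distance in bases from the annotated start site; blocks above a line match the strand of the gene and blocks below it the opposite strand. E2F words stand in the windows of Mcm3, Pola1 and the innermost start of Dnmt1. The windows of E2f1 and Tfdp2, which lie wholly inside the genes, hold none.

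The windows were also searched for 2 common promoter elements. The CCAAT box (the letters CCAAT) was present in Mcm3, Pola1 and Dnmt1, that is in 3 of 4 lower members, in 41.1% of all genes with a window, in 35.2% of the other lower genes and in 44.5% of the other higher genes. The GC box (GGGCGG) was present in all 4 lower members with a window, in 38.2% of all genes, in 64.8% of the other lower genes and in 68.9% of the other higher genes. The window of E2f1, which lies wholly inside the gene, held 5 GC boxes. Neither window of Tfdp2, also inside the gene, held a GC box or a CCAAT box. No match of one motif shared a base with a match of another, and 2 CCAAT boxes of Dnmt1 on opposite strands overlapped each other.

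The arrays were Affymetrix mouse genome arrays, and the authors deposited linear intensities, which ran from 30.1 to 18292. The table had been selected on this contrast, since the smallest difference between group means in it was 1.00 on the log2 scale. Every probe set of it differed at least 2-fold between the groups with an adjusted p under 0.05 in limma, 88 of 271 (32.5%) being lower and 183 (67.5%) higher in the knockout. This rule was used on the contrast that selected the members, so nothing is read from their counts against it. The array medians were higher in the knockout by 0.54 on the log2 scale, and after centring each array on its median 88 probe sets were lower and 66 higher by the same rule. More probe sets were selected as higher than as lower, which by itself can raise the medians of the knockout arrays. A selected table therefore does not show which of these scales puts unchanged transcripts at 0. Fewer cells of a type and less RNA per cell cannot be told apart in RNA of whole ventricles.

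In the knockout ventricles 5 of the 6 genes were lower, on 6 probe sets, and Tfdp2 was higher on both of its probe sets. The groups did not overlap on any of the 8 probe sets, which the selection of the table by a 2-fold difference favours. The median log2 fold change of the 6 lower probe sets was -1.82, and that of all 88 lower probe sets was -1.31. Ranked by their brightest probe set, Mcm3, Pola1 and Mcm4 were in places 3, 4 and 5 among the 72 lower genes, Dnmt1 was in place 13 and E2f1 in place 47. Tfdp2 was in place 8 among the 143 higher genes. The members were selected on this same difference, so their median and places are a description and do not set them apart from the table.

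**Figure D2:**
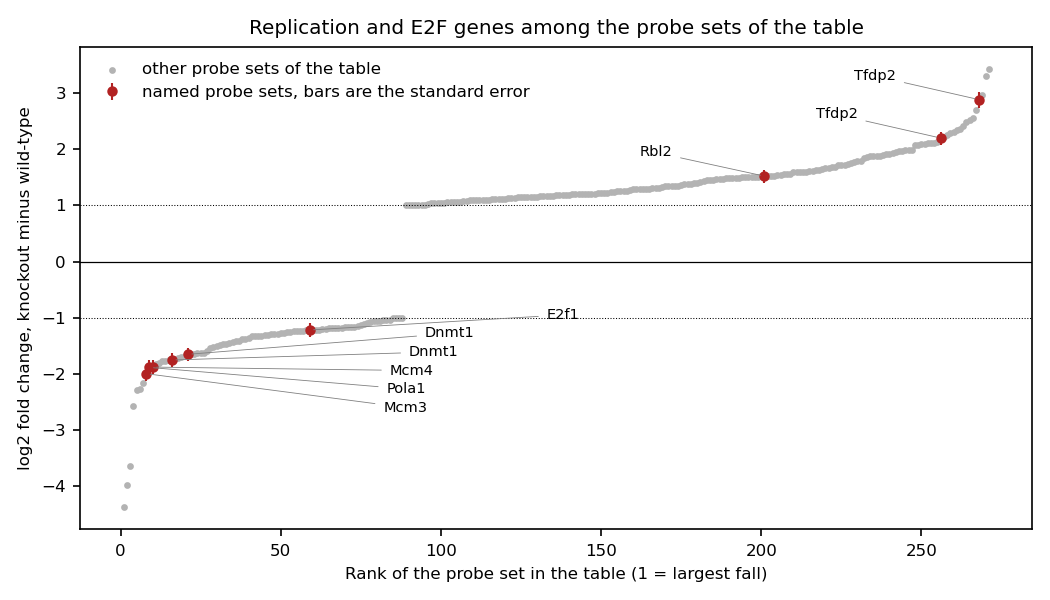
Log2 fold change (knockout minus wild-type) of the 271 probe sets of the table against their rank, with the probe sets of the members and of Rbl2 in red (bars, standard error from limma), all others in grey, and dotted lines at a 2-fold difference. Mcm3 stands at -2.00, E2f1 at -1.22 and the probe sets of Tfdp2 at 2.20 and 2.88. No probe set lies between the dotted lines because the table was selected that way.

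Mcm3 and Mcm4 encode subunits of the replicative helicase. The intensity of Mcm3 (probe set 1426652_at) was 183, 258 and 253 on the wild-type arrays and 71.3, 55.2 and 47.9 on the knockout arrays. All knockout arrays were far below the wild-type ones, the lowest wild-type value being 2.57 times the highest knockout value. The means were 232 ± 41.8 and 58.1 ± 11.9 (SD, n = 3 each), a log2 fold change of -2.00 with a standard error of 0.14, or 3.99-fold lower. For Mcm4 (1416214_at) the wild-type arrays gave 445, 577 and 633 and the knockout arrays 162, 134 and 150. The distance between the groups was again clear, with the lowest wild-type value at 2.74 times the highest knockout value. Mcm4 had means of 551 ± 96.6 and 149 ± 14.3 (SD, n = 3 each) and a log2 fold change of -1.88 (standard error 0.13), which is 3.68-fold lower.

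Pola1 encodes the catalytic subunit of DNA polymerase alpha, the enzyme that extends the primers of new strands. Its probe set (1419397_at) gave 182, 261 and 224 in the wild-type and 57.3, 66.5 and 55.7 in the knockout. The knockout arrays lay close together and well below every wild-type array. The means of 223 ± 39.5 and 59.8 ± 5.82 (SD, n = 3 each) correspond to a log2 fold change of -1.89 (standard error 0.13) and a 3.69-fold lower intensity.

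Dnmt1, the maintenance DNA methyltransferase, was represented by a pair of probe sets. The brighter one (1422946_a_at) gave 704, 946 and 828 in the wild-type and 275, 273 and 237 in the knockout. The other (1435122_x_at) gave 554, 712 and 628 against 187, 197 and 176. Both showed the same picture, with the wild-type arrays in the same order and the knockout arrays in a narrow band below them. The log2 fold changes of -1.65 and -1.75 had standard errors of 0.12 and stood for 3.14-fold and 3.37-fold lower intensities. The ending _x_at of the second marks probes that can also bind other transcripts, and the first does not rest on such probes. The difference between the log2 fold changes of the pair was 0.10 with a standard error of 0.04 from the differences within each array.

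E2f1, an E2F factor that activates replication genes, was the dimmest of the members. Its probe set (1417878_at) gave 81.6, 99.7 and 96.4 in the wild-type and 34.8, 43.8 and 40.9 in the knockout. The groups were apart, but the knockout values were close to the lowest intensity of the table, 30.1, and only 9 of the 271 probe sets were dimmer on average. The means were 92.6 ± 9.62 and 39.8 ± 4.60 (SD, n = 3 each), so that E2f1 was 2.33-fold lower, at -1.22 on the log2 scale (standard error 0.12). Detection calls are not analysed here, so it is not known whether the knockout values were above background. With 50 added to each intensity the log2 fold change of E2f1 was -0.67 and no longer reached 2-fold.

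Tfdp2 encodes a DP protein, the partner with which E2F factors bind DNA, and it was the single member that was higher in the knockout. Its brighter probe set (1437174_at) gave 167, 187 and 211 in the wild-type and 827, 852 and 910 in the knockout. The knockout arrays were tightly grouped there, at 863 ± 42.9 against 188 ± 21.6 (SD, n = 3 each), a log2 fold change of 2.20 (standard error 0.12) or 4.60-fold. The second probe set (1443962_at) gave 101, 105 and 75.0 in the wild-type and 924, 565 and 611 in the knockout. Knockout array 1 was well above the others on this probe set and not on the first. Its log2 fold change was 2.88 (standard error 0.14, or 0.27 from the spread of this probe set alone), or 7.38-fold. It was 2.67 without knockout array 1. The pair differed in log2 fold change by 0.68, with a standard error of 0.34 from the differences within each array.

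**Figure D3:**
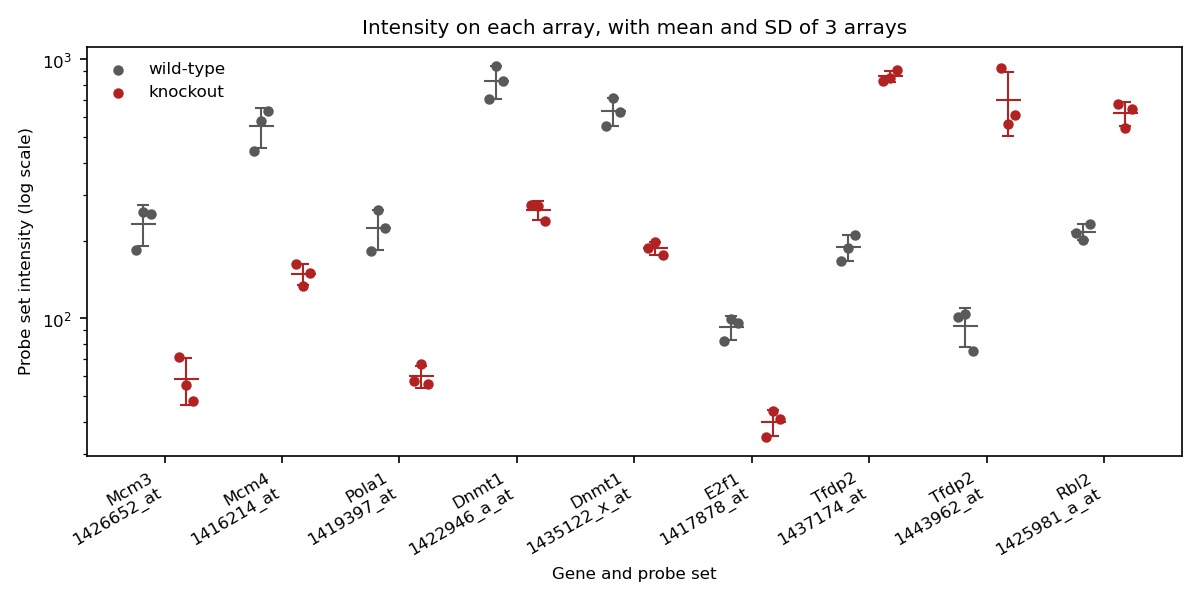
Intensity (log scale) of the 8 member probe sets and of the Rbl2 probe set by array, wild-type in grey and knockout in red (3 points each), with horizontal marks at the group means and bars of 1 SD. The groups are apart on every probe set, which the selection of the table favours. The knockout is lower for Mcm3, Mcm4, Pola1, Dnmt1 and E2f1 and higher for Tfdp2 and Rbl2, and the E2f1 values of the knockout are the lowest of the plot.

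In order of their log2 fold changes Mcm3, Pola1, Mcm4 and Dnmt1 were close together. Neighbours among Mcm3, Pola1, Mcm4 and the 1435122_x_at probe set of Dnmt1 differed by 0.01 to 0.13, with standard errors of 0.16 to 0.20 from the differences within each array, so these steps were within their spread. The step from the brighter Dnmt1 probe set to E2f1 was 0.43 (standard error 0.14). The log2 fold changes of E2f1 and of the brighter Tfdp2 probe set were apart by 3.42 (standard error 0.11), an amount that adding a constant to the log2 values of an array does not alter.

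Beyond these 6 genes the table holds little of the pathway. Of 151 genes in 7 lists written for replication, E2F control and the cell cycle, 7 are in the table, of which 5 were lower and 2 higher. These were 2 of 29 genes of origin licensing and the helicase (Mcm3 and Mcm4, both lower), 1 of 32 genes of the polymerases and the fork (Pola1), 1 of 13 genes of replication-coupled chromatin and methylation (Dnmt1) and 3 of 19 genes of the E2F and retinoblastoma families. None of 10 genes of nucleotide supply, 24 cyclins, kinases and their regulators and 24 genes of mitosis was among those analysed here. A listed gene outside the table may have changed less or may be missing for another reason, so no share of the pathway can be given.

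The seventh gene was Rbl2, a pocket protein of the retinoblastoma family that forms repressor complexes with E2F factors in resting cells. Its probe set (1425981_a_at) gave 214, 201 and 232 in the wild-type and 672, 545 and 645 in the knockout. Rbl2 was thus on the same side as Tfdp2, with the groups apart, at 216 ± 15.3 and 620 ± 67.0 (SD, n = 3 each). The log2 fold change was 1.52 (standard error 0.12), or 2.87-fold, and the difference to that of E2f1 was 2.74 (standard error 0.21). With each array centred on its median the value of Rbl2 was 0.98, and it was 0.95 after quantile normalization, both just under 2-fold. Of the E2F and retinoblastoma genes in the table E2f1 was therefore lower, and Tfdp2 and Rbl2 were higher.

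The size of the differences depended on the scaling of the arrays, and their direction did not change. Centring could not have reversed it, because the array medians differed by 0.54, less than any member or Rbl2 did. Adding a constant to the intensities cannot reverse groups that do not overlap. Centring each array on its median moved the lower members to log2 fold changes of -1.76 for E2f1 to -2.54 for Mcm3, and the probe sets of Tfdp2 to 1.66 and 2.34. After quantile normalization Mcm3 was at -2.44, Mcm4 at -2.50, Pola1 at -2.34, the brighter Dnmt1 probe set at -2.35, E2f1 at -1.49 and the Tfdp2 probe sets at 1.52 and 2.34. With 50 added to each intensity, which weighs against dim probe sets, Mcm3 was at -1.37 and Pola1 at -1.30.

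**Figure D4:**
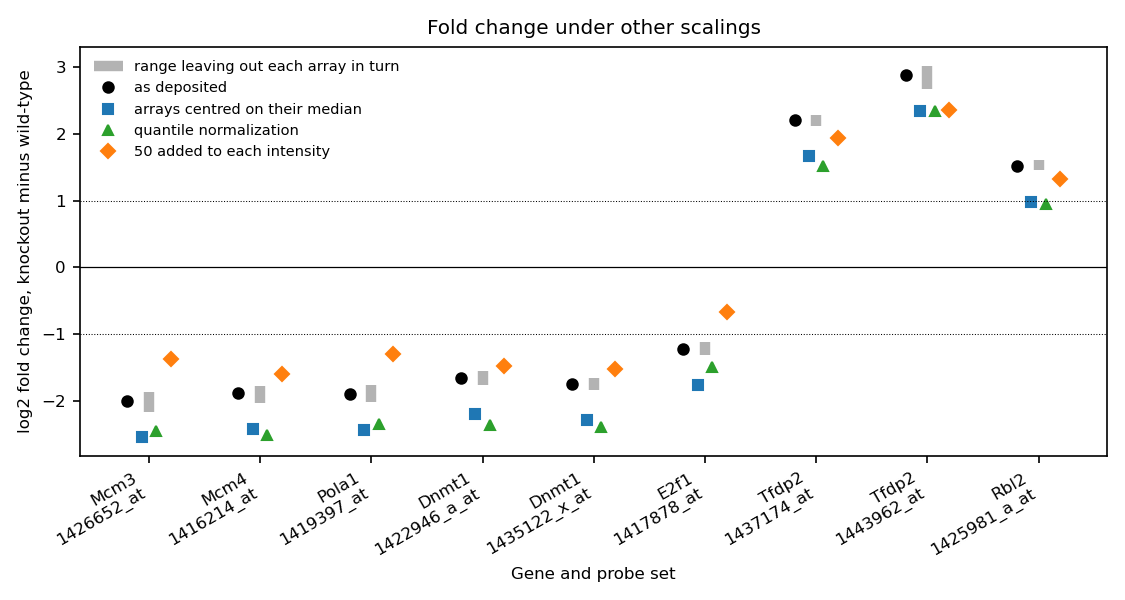
Log2 fold change (knockout minus wild-type) of each member probe set and of Rbl2 as deposited (black circles), with each array centred on its median (blue squares), after quantile normalization (green triangles) and with 50 added to each intensity (orange diamonds), the grey bars giving the range when each array was left out in turn and the dotted lines a 2-fold difference. No probe set changes side of 0, E2f1 reaches -0.67 with 50 added, and Rbl2 comes to 0.98 and 0.95 under the 2 other scalings.

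Within the wild-type group the lower members varied together. Wild-type array 1 was the lowest of its group for 6 of 6 lower member probe sets, with deviations of -0.32 to -0.18 from the group mean on the log2 scale. On the 82 other lower probe sets of the table it was the lowest of its group for 31 (37.8%), with a median deviation of -0.01, and over the whole table its median deviation was 0.01. The low values of array 1 on the replication genes were thus not seen on the median of the other lower probe sets. This was noticed after the values were seen, the 6 probe sets stand for 5 genes read from the same RNA, and it was not tested. Wild-type arrays 2 and 3 lay 0.08 to 0.25 and 0.00 to 0.21 above the group mean for these probe sets. In the knockout group no array was the lowest for all of them, array 3 being the lowest for 4, and the deviations ran from -0.26 to 0.31. Without wild-type array 1 the log2 fold changes were -2.16 for Mcm3, -2.03 for Mcm4, -2.02 for Pola1, -1.76 and -1.84 for Dnmt1 and -1.31 for E2f1.

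**Figure D5:**
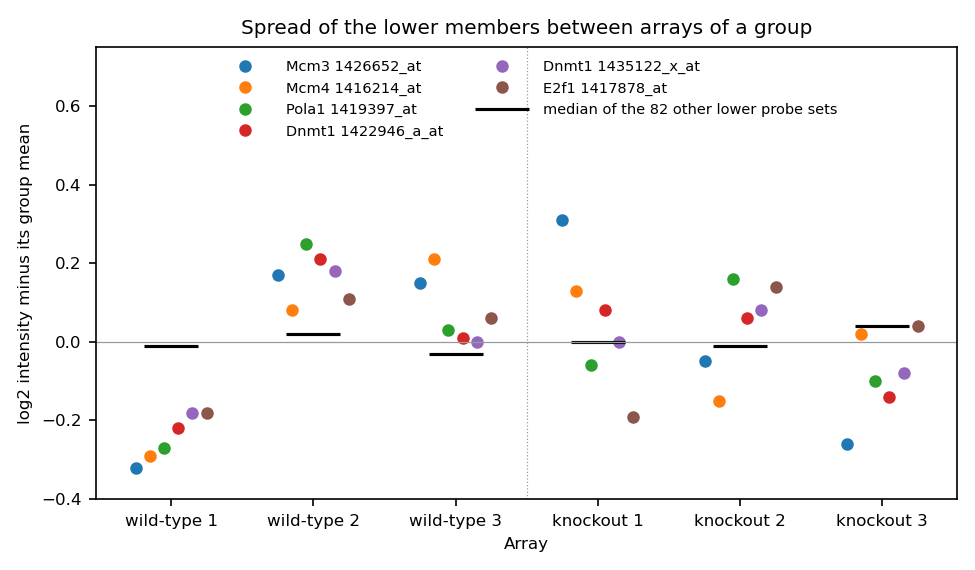
Log2 intensity minus the mean of its own group for the 6 lower member probe sets (coloured points) on each array, with the median of the 82 other lower probe sets as black marks. On wild-type array 1 all 6 points are at -0.18 or below while the black mark is at -0.01, and on the knockout arrays the points lie on both sides of 0.

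The spread between arrays of a group was larger for most members than for the table. The SD of log2 intensity within the wild-type was 0.28 for Mcm3, 0.26 for Mcm4 and Pola1, 0.21 and 0.18 for Dnmt1 and 0.15 for E2f1, and the median over all 271 probe sets was 0.13. Within the knockout it was 0.29 for Mcm3, 0.08 to 0.17 for the other lower probe sets and 0.07 and 0.38 for the pair of Tfdp2, with a median of 0.12 over the table. Mcm3 was therefore the most variable of the lower members in both groups.

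The profiles most like those of the members were sought among the other 214 genes, by the root mean square difference of log2 intensity over the 6 arrays after the mean of each probe set was taken off. All of these profiles share the arrays and the difference that selected the table, so the measure is a description. The nearest gene of Mcm3 was Mcm4, and that of Mcm4 was Mcm3, at 0.16. The nearest gene of Pola1 was Dnmt1, at 0.14, but for Dnmt1 Pola1 was only in place 5. Outside the members, Tuba4a, an alpha-tubulin, was nearest to Dnmt1 (0.08) and also to Mcm4 and Pola1 (0.18 each), followed by Alad for Dnmt1 (0.11), Plbd1 for Pola1 (0.18) and Paqr9 for Mcm4 (0.19). For Mcm3 they were Paqr9 (0.23) and Spon2 (0.24). E2f1 was nearest to Ndc1, a nuclear pore protein (0.08), and Chid1 (0.09), and its nearest member, Dnmt1, came only in place 55 (0.26). Tfdp2 was nearest to the noncoding RNAs Snhg1 (0.05) and Snhg16 (0.13), and Rbl2 to Atp8a1 (0.06) and Dmxl2 (0.08). The nearest member of Tfdp2 was E2f1, in place 167 (1.71), and that of Rbl2 was Tfdp2, in place 134 (0.36). The measure includes the difference between the groups, so genes of opposite direction were bound to be far apart. With Tfdp2 the only higher member, these places mostly restate the log2 fold changes.

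Markers of the cell types of the ventricle are nearly absent from the selected table, so the labelled tissue could not be checked. Of 14 genes of ventricular cardiomyocytes 1 is in the table, Myh7, the slow myosin heavy chain, which ran from 1297 to 1849 in the wild-type and from 16948 to 18292 in the knockout. Of 8 fibroblast genes 1 is in the table, Col3a1, at 1646 to 1905 in the wild-type and 792 to 831 in the knockout (log2 fold change -1.10, standard error 0.11). None of 5 atrial, 7 endothelial, 4 smooth muscle, 7 erythroid and 7 leukocyte genes was among those analysed here. Whether the share of dividing cell types differed between the groups, and its part in the lower replication genes, was not tested.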

How the data were processed

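Ventricular RNA of 3 wild-type and 3 knockout mice or pools (the sources do not say which) was hybridised to 1-colour Affymetrix arrays by a service laboratory. The authors analysed them in GeneSpring GX and deposited linear intensities per probe set. The summarization and normalization are not given in the sources used here. The table holds 271 probe sets, selected on the same contrast. Intensities were set to log2 and compared over the whole table with limma 3.58.1 (lmFit and eBayes, R 4.3.3), knockout minus wild-type, with Benjamini-Hochberg adjustment and a threshold of 0.05. The fit was tested on simulated data. The p-values measure only the spread between these arrays, which may be technical and whose number limits the precision, and none is printed for a member because the members were selected on this contrast. With 28.1 prior degrees of freedom, the standard errors lean on the other selected probe sets. The t-test, which uses each probe set alone, gave 0.27 for the second Tfdp2 probe set and 0.23 for Mcm3. It gave 0.10 to 0.17 for the other member probe sets.

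Probe sets were named from the platform annotation, updated by gene number through RefSeq (GRCm38.p6). A single gene was given for 253, each of which matched, several for 3 and none for 15. The brightest probe set stood for a gene. Named are the members, the pathway genes in the table and the 2 nearest profiles of each. The members and lists were chosen with earlier results of these data known. Promoters were searched in the RefSeq windows with Python 3.11.15 and pandas 2.3.3. Alternatives were median centring, quantile normalization, the methods' t-test, trended and robust eBayes, 50 added to each intensity, leaving out the dimmest 25% or the _s_at and _x_at probe sets, a block for the replicate number, each array left out, and the mean over a gene's probe sets.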

Additional observations from a re-analysis of the deposited data

How the results depend on the processing

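All 122 recomputed log2 fold changes of the members and Rbl2 kept their direction and an adjusted p under 0.05, which the selection of the table favours. The counts of 6 lower and 2 higher member probe sets past 2-fold were the same with the replicate block. Without the dimmest 25% of probe sets 3 lower ones were left, because Mcm3, Pola1 and E2f1 were not among the probe sets fitted. With the mean over both probe sets of Tfdp2 its log2 fold change was 2.54 in place of 2.20. Over the table, 88 lower and 66 higher probe sets passed 2-fold after median centring and 88 and 65 after quantile normalization, in place of 88 and 183. Deviations of arrays with the same replicate number correlated at -0.016 to 0.084 over probe sets, so the numbers were not taken as pairs. Without depth or detection calls, dim values such as those of E2f1 have no known distance from background.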

Other observations

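The genes in this paragraph stand outside the lists, were chosen after their values were seen and were not tested. Brca2, which repairs broken replication forks by homologous recombination, ran from 203 to 237 in the wild-type and from 95.9 to 108 in the knockout, a log2 fold change of -1.12 (standard error 0.11). Ccng2, a cyclin that is high in cells that leave the cycle, ran from 334 to 423 in the wild-type and from 828 to 1007 in the knockout, at 1.30 (standard error 0.12). H1f2, a linker histone, ran from 2034 to 2698 and from 5172 to 6556, at 1.32 (standard error 0.13). The groups were apart for each of them, as for every probe set of the members, which the selection of the table favours. Brca2 was lower, as were 32.5% of all probe sets of the table. Ccng2 and H1f2 were higher, as were 67.5%.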
